A study of Bos taurus with 19 samples.

Results

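The insulin-like growth factor genes IGF1 and IGF2 were examined in longissimus dorsi muscle of 19 Brangus-Angus bull calves at 1 month of age. Both genes were taken by Ensembl identifier, ENSBTAG00000011082 for IGF1 and ENSBTAG00000013066 for IGF2, and both were present in all 19 files among 27570 identifiers. The calves fell into 2 groups by the diet of their dams. In the control group (9 calves) the cows received limpograss hay with molasses and urea, and in the methionine group (10 calves) that diet carried a daily supplement of rumen-protected methionine, 3.7 g for each cow. Feeding of both diets began at day -30 and ended at day 90, counted from when the breeding season opened, so the treatment covered conception and early gestation and the calves themselves were not supplemented. Each calf gave 1 library. The files list identifiers without symbols and the RefSeq table used here pairs 0 of them with a name, so the names IGF1 and IGF2 rest on the identifiers, and the muscle label was not checked against marker genes.

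IGF1 and IGF2 encode small secreted peptides related to insulin that act through the type 1 IGF receptor. In muscle they promote the proliferation and differentiation of myoblasts and the growth of fibres. IGF1 is a main effector of growth hormone and comes from the liver as well as from muscle itself, whereas IGF2 is best known as a growth factor of fetal life. IGF2 is imprinted in cattle, with expression from the paternal copy in most tissues. Its imprinting depends on DNA methylation near the neighbouring non-coding gene H19, and methionine is a source of the methyl groups used for that mark. The question was whether the level, the balance or the spread of these growth factors differed between calves of the 2 maternal diets. The RefSeq annotation used here is of another assembly than ARS-UCD1.2, to which the reads were mapped. In it, the genes that start just before IGF2 are INS, which encodes insulin, and TH, which encodes tyrosine hydroxylase. It places 3 annotated genes between the starts of IGF2 and H19. RefSeq lists 10 transcripts for IGF1 and 8 for IGF2, and the counts do not separate them.

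Libraries held between 49077786 and 83994792 counts in total under the control diet and between 52672118 and 88539777 under the methionine-rich diet. The difference between the diets in mean total count, 8088513 counts higher under methionine, did not pass a two-sided permutation test of all arrangements (exact, p = 0.122). After the 25 most abundant genes and lowly expressed genes were removed, 14518 genes were retained, and between 29262749 and 55382580 counts per calf remained. Levels are given as TMM CPM, in which these remaining counts of each library were scaled to a common total after normalization by the trimmed mean of M-values. No 2 libraries were identical. Both genes passed the filters: neither was among the 25 most abundant, and no calf had 5 or fewer counts for either.

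IGF1 was expressed at a low level in this muscle and was detected in every calf. Between 27 and 172 counts of a library were assigned to it. It ranked 11419th by mean count among the 27570 identifiers, and its mean level was above that of 21.9% of the genes tested. In the control calves IGF1 had a lowest level of 0.652 CPM (calf 6520), a median of 2.30 CPM and a highest level of 4.28 CPM (calf 6126). In the methionine calves the lowest was 0.795 CPM (calf 6197), the median 2.16 CPM and the highest 5.82 CPM (calf 6438). A few calves made up the ends of both groups. Control calves 6520 and 6133 (0.860 CPM) and methionine calves 6197 and 6419 (1.002 CPM) stood below the others, and the remaining 7 control calves were at 2.28 CPM or more. The range was 6.56-fold among the control calves and 7.32-fold among the methionine calves, and 8 control and 9 methionine calves lay in the interval shared by both groups.

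With counts this low, counting error itself contributed to the spread of IGF1, but little when each count is taken as independent. The 27 counts of calf 6520 gave a 95% Poisson interval from 0.430 to 0.948 CPM, and the 171 counts of calf 6438 gave one from 4.98 to 6.76 CPM. The coefficient of variation between calves was 46.8% in the control group and 58.1% in the methionine group. Counting error alone corresponded to coefficients of 10.5% and 10.1%, or 5.001% and 3.002% of the variance. The Poisson intervals were computed from the count of each calf and cover counting error only.

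IGF2 stood at the other end of the range. It ranked 125th by mean count among the 27570 identifiers, and its mean level was above that of 99.3% of the genes tested. It took between 0.0410% and 0.123% of all counts of a calf. In the control calves the lowest level was 678 CPM (calf 6133), the median 1148 CPM and the highest 1864 CPM (calf 6157). In the methionine calves the lowest was 883 CPM (calf 6228), the median 1215 CPM and the highest 1677 CPM (calf 6412). All 10 methionine calves lay within the range of the control calves, and 4 of the 9 control calves and 5 of the 10 methionine calves were above the median of all 19. The deposited counts behind these levels were between 22070 and 81143 per calf. With each count taken as independent, counting error was 0.473% of the mean for the control diet and 0.436% for the methionine-rich diet. The coefficient of variation between calves was 31.5% and 18.99%. Bulk RNA of this kind cannot tell fewer cells of a type that make a transcript from less transcript per cell.

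**Figure D1:**
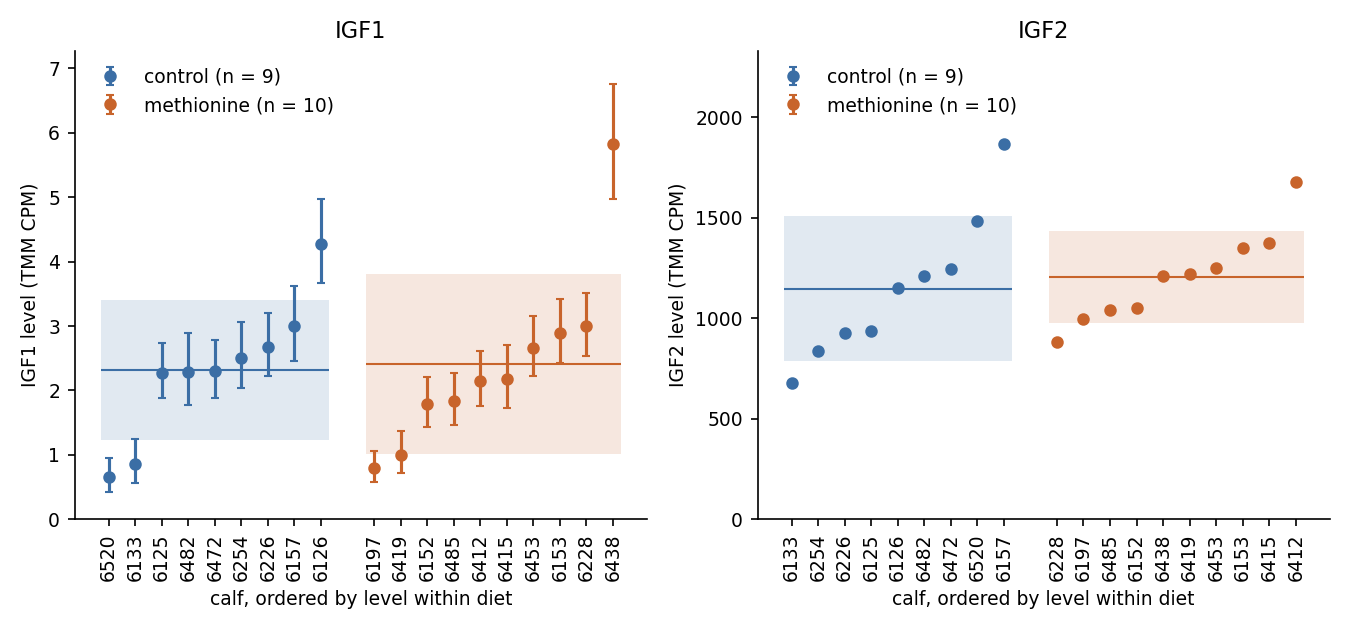
Level of IGF1 (left) and IGF2 (right) in TMM CPM in each of the 19 calves, ordered by level within the maternal diet. Points are calves, bars are 95% Poisson intervals from the counts (smaller than the points for IGF2), lines are diet means and bands are 1 SD. The diets overlap for both genes, IGF1 lies between 0.652 and 5.82 CPM and IGF2 between 678 and 1864 CPM.

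Neither gene differed in level between the maternal diets beyond the spread between calves. Under the control diet IGF1 was at 2.31 ± 1.08 CPM (SD, n = 9), and under the methionine-rich diet at 2.41 ± 1.40 CPM (SD, n = 10). Its log2 fold change, methionine minus control, was 0.06 with a standard error of 0.357 (edgeR quasi-likelihood test, Benjamini-Hochberg adjusted p = 0.998 over all 14518 genes). IGF2 was at 1148 ± 362 CPM (SD, n = 9) and 1206 ± 229 CPM (SD, n = 10). Its log2 fold change was 0.07 with a standard error of 0.157 (adjusted p = 0.996 from the same test). The edgeR test called 0 of the 14518 genes at an adjusted p under 0.05, which is 0.0%, and 719 genes (4.95%) had an unadjusted p under 0.05. DESeq2 called 7 genes (0.0482%) and gave 757 (5.21%) an unadjusted p under 0.05, and IGF1 and IGF2 were not among them (adjusted p = 0.9998 for each in DESeq2, Benjamini-Hochberg). The whole set of genes therefore gave a small background of calls, and the members did not stand out from it. The unadjusted p of IGF1 was 0.877, and 87.8% of genes had a smaller one. That of IGF2 was 0.654, and 65.1% of genes had a smaller one.

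The 95% interval of the fold change of methionine over control was from 0.622 to 1.74 for IGF1 and from 0.838 to 1.32 for IGF2. These are intervals for each gene alone, not adjusted over the 14518 genes, and both include no difference. The median absolute log2 fold change over all genes tested was 0.13, above that of both IGF1 and IGF2. The direction for IGF1 rested on single calves: its log2 fold change was -0.04 without control calf 6133, -0.06 without control calf 6520 and -0.18 without methionine calf 6438. For IGF2 it stayed above 0 with each of the 19 calves left out in turn, from 0.01 without methionine calf 6412 to 0.19 without control calf 6157.

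**Figure D2:**
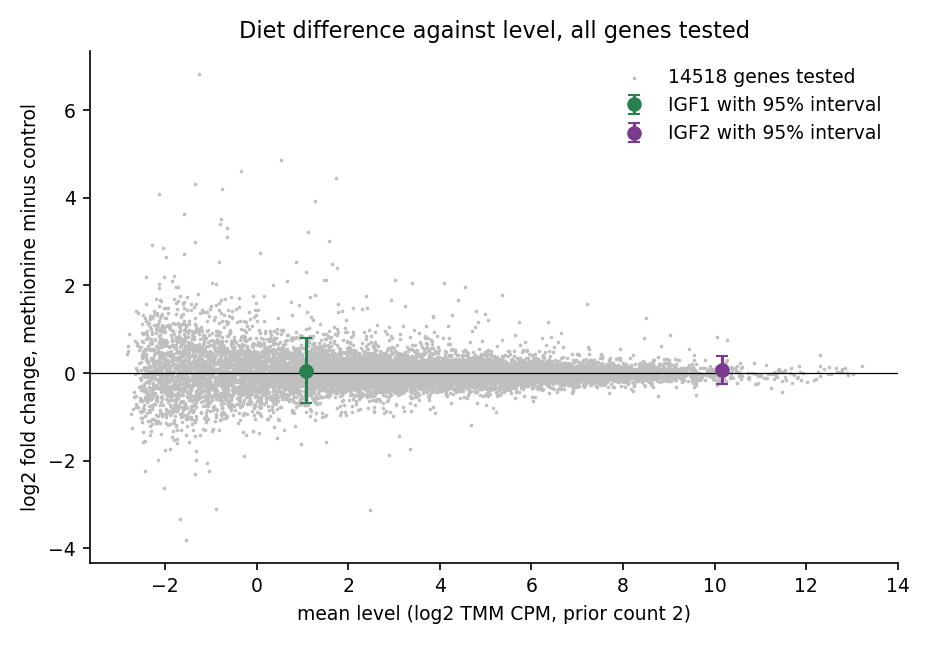
Log2 fold change between the maternal diets (methionine minus control, y axis) against mean level in log2 TMM CPM (x axis) for the 14518 genes tested, in grey. IGF1 and IGF2 are drawn with their 95% intervals, both of which include 0, and the interval is wider for IGF1, the gene of lower level.

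The balance of the 2 growth factors was taken as the number of IGF2 counts for each IGF1 count in a calf. Counts were not scaled for transcript length, which the files do not give, so the ratio compares calves and not the molar amounts of the 2 transcripts. IGF2 counts exceeded IGF1 counts in all 19 calves. Among the control calves the ratio was lowest at 268 (calf 6126), had a median of 531 and was highest at 2272 (calf 6520). Among the methionine calves it was lowest at 208 (calf 6438), had a median of 579 and was highest at 1257 (calf 6197). Calf 6520 had the highest ratio of all 19 calves. It combined the lowest IGF1 level of the 19 calves with a high IGF2 level, 1481 CPM, which was number 3 in order, and the 95% interval of its ratio (exact binomial, counting error only) was from 1562 to 3448. The next highest ratios, in methionine calves 6197 and 6419 (1217), had intervals from 939 to 1723 and from 893 to 1704, which reach into that of calf 6520.

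The mean log2 ratio was 9.05 under the control diet and 9.11 under the methionine-rich diet. The difference, 0.06 with a standard error of 0.388, was smaller than the SD of either group (two-sided exact permutation test over all 92378 arrangements of the calves, p = 0.872). As a linear ratio of counts the mean was 679 for control and 648 for methionine, so that the direction was the opposite (difference -31.2, exact permutation p = 0.914). Without calf 6520 the difference in log2 ratio was 0.31. The ratio followed mostly IGF1. Within diets, the variance of log2 IGF1 was 94.5% as large as the variance of the log2 ratio, and that of log2 IGF2 was 18.6% as large.

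**Figure D3:**
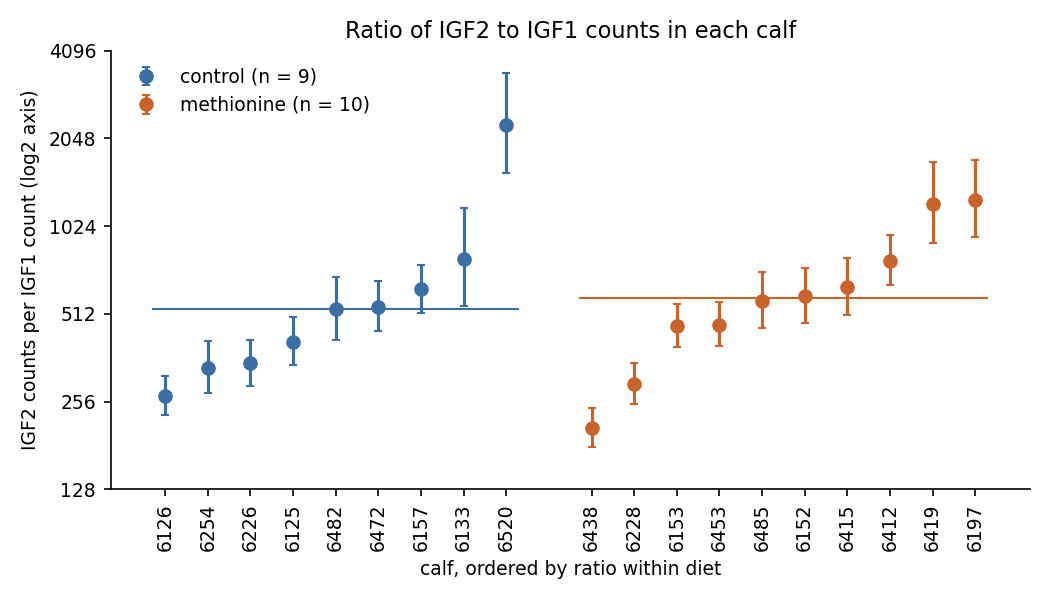
IGF2 counts per IGF1 count in each calf on a log2 axis, ordered within the maternal diet. Points are calves, bars are 95% exact binomial intervals (counting error only) and lines are diet medians, 531 for control and 579 for methionine. Control calf 6520, at 2272, is the highest of all calves.

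No relation between the levels of IGF1 and IGF2 was detected across calves. Over all 19 calves, Pearson's r between their log2 CPM was 0.159 (permutation test with 100000 resamples, p = 0.515, adjusted p = 0.928 over 7 relations) and Spearman's rho was 0.0421 (p = 0.865, adjusted p = 0.893, by the same test). Without calves 6520 and 6197, the 2 farthest from the median IGF1, r was 0.317. Within the control calves r was 0.150 (exact permutation test, p = 0.693) and rho 0.100 (p = 0.810, exact permutation test). Within the methionine calves r was 0.175 (permutation test, p = 0.634) and rho 0.139 (p = 0.705, permutation test). The highest and the lowest calf differed between the genes, although some of these calves were near an extreme of the other gene. Control calf 6520, the lowest for IGF1, ranked 3rd for IGF2. Methionine calf 6438, the highest for IGF1, ranked 10th for IGF2, and control calf 6157, the highest for IGF2, ranked 3rd for IGF1. Control calf 6133 was low for both, lowest of 19 for IGF2 and 17th for IGF1, and without it r was -0.07.

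**Figure D4:**
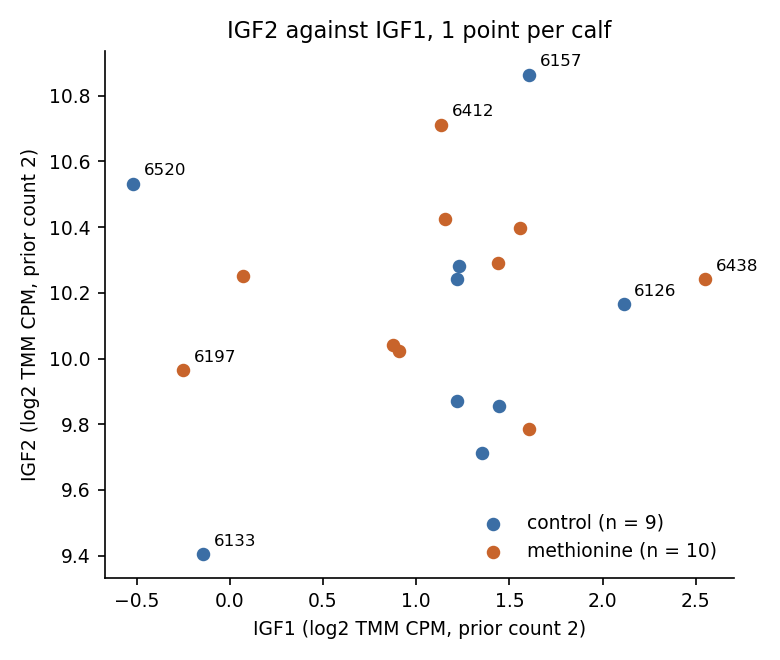
IGF2 against IGF1 in log2 TMM CPM (prior count 2), with 1 point per calf coloured by maternal diet and the extreme calves numbered. Over all calves r is 0.159, calf 6520 lies at low IGF1 and high IGF2, and calf 6133 is low for both.

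Library properties were compared with the levels in the same family of relations. Over the 19 calves, log2 IGF1 had an r of -0.359 with the total count (permutation test, p = 0.132, adjusted p = 0.926), -0.216 with the share of counts in the 25 most abundant genes and -0.0640 with the number of genes detected. For log2 IGF2 the same values of r were -0.0645, 0.0217 and 0.0405. None passed after adjustment. Within the methionine calves, r between IGF1 and the total count was -0.779 (permutation test, p = 0.0115, adjusted p = 0.161 over 14 relations), and it was -0.0859 in the control calves (exact permutation test, p = 0.809). In that diet calf 6438 had the lowest total count and the highest IGF1. Calf 6197 had the highest total count and the lowest IGF1. Without these 2 calves, the farthest from the median total count, r was -0.129. By rank, with all calves of that diet kept, rho was -0.624 (permutation test, p = 0.0588, adjusted p = 0.412). Over all 19 calves rho between IGF1 and the total count was -0.456 (permutation test, p = 0.0515, adjusted p = 0.360 over 7 relations). Within the methionine calves IGF2 also ran against the total count by rank (rho = -0.697, permutation p = 0.0297, adjusted p = 0.412), and r was -0.446, or -0.702 without calves 6438 and 6197. The part of depth in these levels was not tested further. The labels give no sequencing batch.

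The spread between calves was larger for IGF1 than for IGF2 on the log2 scale, where the SD within diets was 0.816 and 0.361. Genes of low level vary more between calves, so each was set beside the 500 genes nearest in mean level, as a description. The SD of IGF1 was above that of 64.6% of these genes, whose median was 0.724. The SD of IGF2 was above that of 82.2% of its neighbours in level, whose median was 0.262. The biological coefficient of variation estimated by edgeR was 54.1% for IGF1 and 24.5% for IGF2, against a median of 28.7% over all genes tested.

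IGF2 ranged more widely among the control calves than among the methionine calves, 2.75-fold against 1.90-fold from the lowest to the highest CPM. The mean absolute deviation of log2 CPM from the diet median was 0.342 and 0.202. This difference of -0.14 did not pass the two-sided exact permutation test (p = 0.156, adjusted p = 0.313 over the 2 genes). For IGF1 the deviation was 0.527 for control and 0.557 for methionine (difference 0.03, exact permutation p = 0.912, adjusted p = 0.912).

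**Figure D5:**
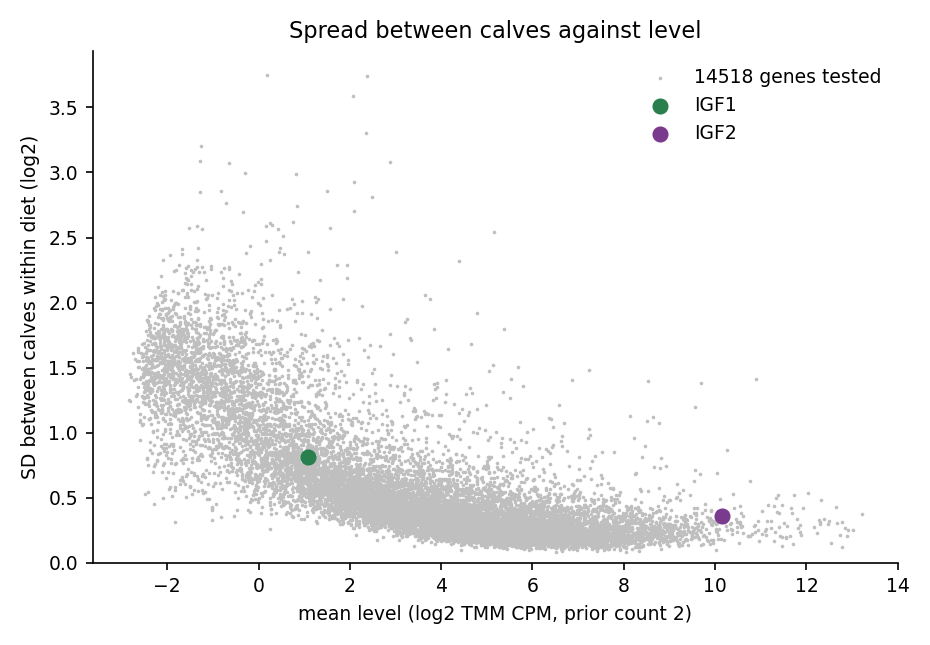
SD between calves within diets of log2 TMM CPM (y axis) against mean log2 TMM CPM (x axis) for the 14518 genes tested, in grey. IGF1 (SD 0.816) and IGF2 (SD 0.361) both lie above the median of the genes closest to them in level.

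The scale of measurement decided which of the growth factors counted as variable, a property that sets the entry of genes to a coexpression network when the 50% of genes with the highest variance are kept. On log2 CPM the variance of IGF1 over the 19 calves was above that of 77.7% of the genes tested and that of IGF2 above 42.9%, so IGF1 was in the upper 50% and IGF2 was not. On linear CPM the order was the opposite, with 23.5% for IGF1 and 99.3% for IGF2. These linear values were close to the ranks of the genes by mean level, 21.9% and 99.3%. They therefore say little about variability apart from level. All of these percentages are over the 14518 genes tested here. The study retained fewer genes after its filters, so the percentages do not show which genes entered its network.

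Genes with a pattern like that of IGF1 or IGF2 over the calves were sought among 12668 others with a mean of at least 1 CPM, by Pearson's r of log2 CPM after the diet means were subtracted. These were selected as the extremes of all genes, so their values are descriptions. The gene most like IGF1 was ENSBTAG00000030675 (r = 0.816, rho = 0.747). Its level was between 10.3 and 16.6 CPM in the control calves (median 14.6) and between 9.84 and 18.985 CPM in the methionine calves (median 13.5), and r stayed between 0.772 and 0.862 with each calf left out. The gene most opposed to IGF1 was ENSBTAG00000000012 (r = -0.811, rho = -0.812), at medians of 11.6 CPM in the control and 10.9 CPM in the methionine calves. For IGF2 the most alike was ENSBTAG00000002962 (r = 0.835, rho = 0.725), at medians of 9.27 and 9.18 CPM. The most opposed was ENSBTAG00000001356 (r = -0.852, rho = -0.888), at medians of 161 and 149 CPM. For this gene r was -0.933 within the control calves and -0.753 within the methionine calves. IGF1 had 5 genes with an r beyond 0.8 in either direction and IGF2 had 4. For the diet itself, the genes with the smallest edgeR p in each direction were ENSBTAG00000011465 and ENSBTAG00000000899. The first was higher under methionine (log2 fold change 0.88, standard error 0.173, edgeR adjusted p = 0.330, DESeq2 adjusted p = 0.00127). The second was lower under methionine (-0.95, standard error 0.174, edgeR adjusted p = 0.261, DESeq2 adjusted p = 0.000722). Both were among the 7 genes that DESeq2 called and edgeR did not. The smallest DESeq2 adjusted p, 4.75e-06, belonged to another gene.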

How the data were processed

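RNA was poly(A)-captured and sequenced as paired-end reads, 1 library per calf. Per the labels and the methods of the study, the authors used Trim Galore 0.4.4 for trimming, HISAT2 2.1.0 for mapping to ARS-UCD1.2 and htseq-count in intersection-nonempty mode for counting. The deposited values are raw counts per Ensembl gene. The annotation release and strand setting are not given in the sources used here, so antisense reads cannot be told apart. Diets came from the sample titles.

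The 25 genes of highest mean count were removed, and then genes at 5 counts or fewer in 9 or more calves. Counts were normalized by TMM and tested in edgeR 4.0.16 (R 4.3.3, quasi-likelihood test, diet as the only term, Benjamini-Hochberg over 14518 genes), with DESeq2 1.42.0 as an alternative. Log2 CPM used a prior count of 2. Ratios, spreads and correlations used permutation tests written in Python 3.11.15 (scipy 1.17.1, numpy 2.4.6, pandas 2.3.3). Plots used matplotlib 3.10.9. Both sets of code were tested on simulated data. P-values set each difference or relation against the variation between calves.

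The genes and tests were chosen with earlier results of these data known. Genes named besides IGF1 and IGF2 were those with the highest and lowest correlation with each and the smallest edgeR p in each direction. Of the 5 highest and 3 lowest set by the rule, only the first of each is named, since identifiers were not paired with symbols. Lists of IGF pathway genes and cell type markers were not analysed here for the same reason, and bisulfite data were not used.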

Additional observations from a re-analysis of the deposited data

Results flagged for a closer look

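The log2 ratio of IGF2 to IGF1 in control calf 6520 was 11.05, above the other 8 control calves, which lay between 8.05 and 9.55. The gap to the next calf was 0.502 of the range of the group, just over the threshold of 0.493 for a flag. In that library 27 counts fell on IGF1 and 61349 on IGF2. Of the 6 groups of values examined (IGF1, IGF2 and their ratio in each diet), this was the only one flagged. Chance flags about 1 in 20 groups, so a flag among 6 can arise by chance. The ratio is made from both genes, and calf 6520 was not flagged for either alone (gap 0.143 for IGF1).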

How the results depend on the processing

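IGF1 and IGF2 stayed above an adjusted p of 0.05 in the diet comparison under all alternatives run: DESeq2, DESeq2 size factors, library size only, the 25 most abundant genes kept, no low-count filter, and each of the 19 calves left out. The number of genes called was 0 in edgeR, 7 with DESeq2, and from 0 to 1 with each calf left out (1 without control calf 6520). With each calf left out, the log2 fold change ranged from -0.18 to 0.22 for IGF1 and from 0.01 to 0.19 for IGF2. The difference in log2 ratio ranged from -0.0605 to 0.31, and was below 0 without control calves 6126, 6226 or 6254 or methionine calves 6197 or 6419. As a linear ratio of counts it was -31.2. The difference in mean absolute deviation ranged from -0.0640 to 0.20 for IGF1, below 0 without any 1 of 8 calves (control 6125, 6226, 6254, 6472 and 6482, methionine 6197, 6419 and 6438), and from -0.18 to -0.09 for IGF2. The correlation of IGF1 with IGF2 ranged from -0.0688 to 0.32, below 0 without control calf 6133 alone. None of these passed its threshold. The other alternatives, a prior count of 0.5 and diet means subtracted first among them, kept each direction. The cause of the changes was not tested. The IGF pathway and marker lists were not run. The lowest count in a library was 27 for IGF1 and 22070 for IGF2, which sets the counting error of each.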
